A study of Mus musculus with 9 samples.

Results

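Siglecs are cell surface lectins of the immunoglobulin superfamily that bind sialic acids, the sugars that cap most glycans of vertebrate cells. Several of them carry inhibitory tyrosine motifs in their cytoplasmic tails that recruit phosphatases and dampen activation, while others lack such motifs and act in adhesion or signal through the adaptor encoded by Tyrobp. In mouse myeloid cells they are known as brakes on inflammatory signalling and as markers of macrophage and dendritic cell types. The expression of 6 Siglec genes was followed here, namely Cd22, Siglecg, Siglece, Siglech, Siglec1 and Cd33, which were taken as the rows of the deposited gene count table whose Ensembl identifiers map to these symbols. They make up 6 of the 46517 genes in the table, each symbol matched 1 identifier, and all 6 were abundant enough to be tested.

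Primary monocytes with a wild-type (wt) genotype on the C57BL/6 background were studied in vitro, with 3 RNA sequencing libraries each of patrolling monocytes (pMo), intermediate monocytes (intMo) and conventional monocytes (cMo), numbered 0, 1 and 2. According to the series title, the patrolling cells were derived from bone marrow on OP9-DLL1, a mouse stromal line that displays the Notch ligand Delta-like 1. No label names a transgene, a deletion or a drug, and the way the subsets were separated is not described in them. The series description repeats the conventional subset where the sample labels have the patrolling one, and the sample labels were followed. Because the labels do not say that libraries of 1 subset came from separate cultures or animals, p-values measure only the spread between these libraries, which may be technical. Levels are in CPM, gene counts brought to a common library size after TMM scaling, and changes are log2 fold changes ± SE from edgeR's quasi-likelihood test with Benjamini-Hochberg adjustment over the 14059 genes tested, called at an adjusted p under 0.05.

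Each library held between 18455116 and 29985684 estimated counts. Ly6c2, a defining gene of conventional monocytes, set cMo apart. It lay at 8.71 to 75.5 CPM in pMo, 24.5 to 256 CPM in intMo and 1040 to 1400 CPM in cMo. Between pMo and intMo it overlapped and was not called (edgeR adjusted p = 0.371). Nr4a1, a nuclear receptor gene needed for patrolling monocytes, set all 3 subsets apart. Its level was 4050 to 5080 CPM in pMo, 1540 to 2310 CPM in intMo and 201 to 260 CPM in cMo. Spn, another monocyte subset gene, had a different order, at means of 551 CPM in pMo, 99.2 CPM in intMo and 277 CPM in cMo. In intMo against cMo it fell, with a log2 fold change of -1.48 ± 0.28 (edgeR adjusted p = 0.00587). Of the 12 monocyte subset genes, 8 rose and 3 fell in pMo against cMo, 6 rose and 0 fell in pMo against intMo, and 6 rose and 4 fell in intMo against cMo. The list holds genes of conventional and of patrolling monocytes, so these counts alone do not bear out the labels. Library 0 stood apart from the other two in each subset, with correlations of log2 CPM of 0.951 to 0.975 with them, against 0.986 to 0.99 between libraries 1 and 2. Stromal genes were present, and of the 12 tested 10 rose and 1 fell in pMo and in intMo against cMo. The 1 that fell was Fn1, which encodes fibronectin and was named after its values were seen, at means of 105 CPM in pMo, 119 CPM in intMo and 1080 CPM in cMo. Col1a1, the fibroblast collagen gene, lay at 23.9 to 82.4 CPM in pMo, 20.5 to 110 CPM in intMo and 0.633 to 3.6 CPM in cMo. The part of stromal RNA in the Siglec results was not tested. In whole-subset libraries, fewer cells of a type and less RNA per cell cannot be told apart.

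The 6 genes did not change as a block. In pMo against cMo, Cd22, Siglece and Siglecg rose, Siglech and Cd33 fell, and Siglec1 was not called. Those are 5 of 6 members, where 33.1% of all tested genes were called, 17.2% as higher and 15.9% as lower. In intMo against cMo, Cd22, Siglech, Siglece and Siglecg rose and none fell, where 24.4% of all genes were called, 14% as higher and 10.4% as lower. In pMo against intMo, Siglech and Cd33 fell and none rose, where 4.99% of all genes were called, 3.29% as higher and 1.69% as lower. At an unadjusted p under 0.05 (edgeR), 1 member was higher and 3 lower in pMo against intMo and 5 were higher and 0 lower in intMo against cMo. DESeq2 called 1 higher and 2 lower in pMo against intMo and 4 higher and 0 lower in intMo against cMo. The shares of all genes given above belong to the adjusted edgeR calls and do not apply to these counts, which describe the members only. A test for a difference among the 3 subsets called 5 of 6 members, all but Siglec1 at an adjusted p of 0.113 (edgeR), where 33% of all genes were called. The median log2 fold change of the members was 0.59 in pMo against cMo, -1.04 in pMo against intMo and 1.84 in intMo against cMo, beside 0.03, -0.02 and -0.01 over all genes tested.

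**Figure D1:**
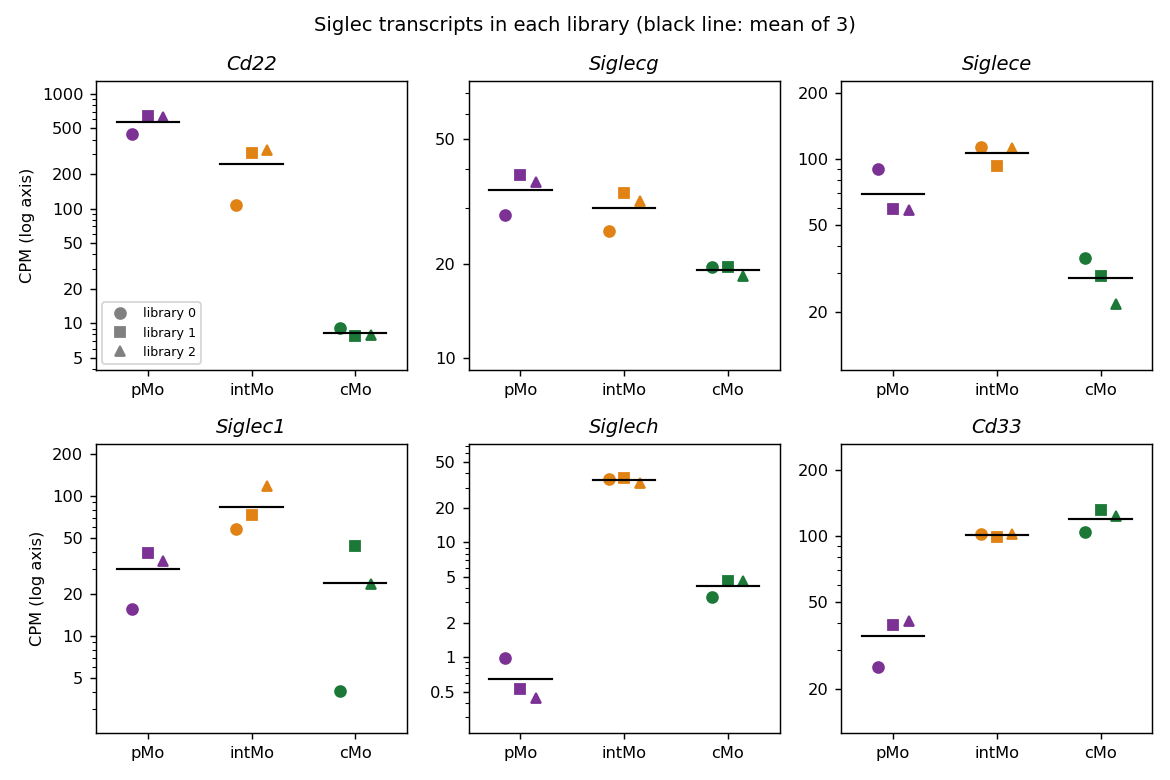
Level of each Siglec gene in CPM on a log axis in the 3 libraries of pMo, intMo and cMo, with symbols for the library numbers and a black line at the mean. Cd22 steps down over the 3 subsets as drawn, Siglech, Siglec1 and Siglece are highest in intMo, and Cd33 is lowest in pMo.

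Promoter sequences of RefSeq (GRCm38.p6, 250 bases before and 50 after the start site) were matched by symbol for 5 of the 6 members, Siglecg with 2 promoters. Those of Cd22, Siglech and Cd33 are shown because Cd22 was highest in pMo, Siglech was highest in intMo and Cd33 was lowest in pMo. They lie at chr7:30878979-30879278 on the minus strand for Cd22, chr7:55767934-55768233 on the plus strand for Siglech and chr7:43533122-43533421 on the minus strand for Cd33, and are written 5′ to 3′. In the GENCODE M21 annotation the 5′ end of the gene lies further out, at 30880342 for Cd22 and 43544428 for Cd33. The windows of these genes thus lie inside their annotated gene bodies. Capitals mark TGGGAA, the core bound by RBPJ, the nuclear partner of Notch, and GAGGAA, the core bound by the myeloid factor PU.1, on either strand.
Cd22: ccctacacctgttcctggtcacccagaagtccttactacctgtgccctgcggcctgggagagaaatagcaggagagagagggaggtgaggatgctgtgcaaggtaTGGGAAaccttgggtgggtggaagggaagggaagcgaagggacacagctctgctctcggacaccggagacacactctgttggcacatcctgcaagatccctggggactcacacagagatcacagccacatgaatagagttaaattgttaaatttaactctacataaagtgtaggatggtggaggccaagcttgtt
Siglech: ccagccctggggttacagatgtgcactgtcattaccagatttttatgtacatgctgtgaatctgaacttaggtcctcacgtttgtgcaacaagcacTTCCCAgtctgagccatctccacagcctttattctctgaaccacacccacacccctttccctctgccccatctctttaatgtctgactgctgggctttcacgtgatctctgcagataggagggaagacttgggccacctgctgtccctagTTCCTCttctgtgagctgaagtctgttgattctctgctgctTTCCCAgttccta
Cd33: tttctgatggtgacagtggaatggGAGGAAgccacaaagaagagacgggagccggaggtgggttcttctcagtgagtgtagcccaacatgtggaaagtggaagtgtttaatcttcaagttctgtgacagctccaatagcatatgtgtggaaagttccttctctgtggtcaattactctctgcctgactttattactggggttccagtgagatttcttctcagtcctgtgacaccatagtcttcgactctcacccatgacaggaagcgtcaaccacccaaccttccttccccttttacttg
TGGGAA or its reverse complement was in 25.6% of all 32851 promoters of the same length, and in those of Cd22, Siglech and 1 of the 2 of Siglecg. In Cd22 it starts at position -145, counted from the RefSeq start site. GAGGAA was in 28.3% of all promoters and in those of Cd33, Siglece, Siglech and 1 of Siglecg, at position -226 in Cd33. On both strands, TTNNGCAA (C/EBP) was in 10.8% of all promoters and in that of Siglech, and CACCC (KLF) in 57.5% and in all 6. The paired interferon response motif (3.44% of all), AAAGGTCA (NR4A, 1.51%) and TGANTCA (AP-1, 7.81%) were in none of the 6. None of the matches in capitals overlapped another of them. The matches describe the letters of these windows and were not tied to the expression values.

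Cd22, an inhibitory receptor best known from B cells where it restrains the antigen receptor, showed the largest difference between subsets of the 6 genes. It lies on mouse chromosome 7 at 30865402 to 30880342 on the minus strand (GRCm38, GENCODE M21; gene ENSMUSG00000030577.12). Its level was 447, 648 and 627 CPM in pMo libraries 0, 1 and 2, 107, 306 and 323 CPM in intMo, and 9.14, 7.80 and 7.85 CPM in cMo. Every pMo library lay above every intMo library, and every intMo library above every cMo library, with intMo library 0 well below the other two of its subset. The means were 574 ± 111 CPM in pMo, 245 ± 120 CPM in intMo and 8.26 ± 0.759 CPM in cMo (SD, n = 3 each). Cd22 rose in pMo against cMo by a log2 of 6.12 ± 0.44 (edgeR adjusted p = 3.86e-05), a 69.5-fold difference that placed it 90th from the highest of 14059 genes. It also rose in intMo against cMo by 4.89 ± 0.42 (edgeR adjusted p = 0.000153). In pMo against intMo the difference of 1.23 ± 0.36 was not called (edgeR adjusted p = 0.0936; 95% interval 0.42 to 2.04). That comparison was called without intMo library 0, at a log2 of 0.87 (edgeR adjusted p = 0.0284), with libraries 1 and 2 alone at 1.02 (edgeR adjusted p = 0.00053) and with DESeq2 at 1.23 (DESeq2 adjusted p = 0.0102), and the adjusted p ran from 0.00053 to 0.275 over all 18 alternatives.

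Several B cell genes that accompany Cd22 in lymphocytes were low, and others were not. Pax5, the B cell fate factor, had 4 counts in pMo, 0 in intMo and 4 in cMo over the 3 libraries of each. Cd79a, part of the B cell antigen receptor, averaged 0.714 CPM in pMo, 0.204 CPM in intMo and 0.487 CPM in cMo, and Ms4a1, which encodes CD20, averaged 1.35 CPM in pMo, 1.89 CPM in intMo and 0.905 CPM in cMo. The 14 B cell genes together summed to 215 to 311 CPM in pMo, 166 to 214 CPM in intMo and 198 to 322 CPM in cMo. A large part was Ighm, at means of 155 CPM in pMo, 90.0 CPM in intMo and 247 CPM in cMo. Cd79b, the partner of Cd79a in the antigen receptor, averaged 24.2 CPM in pMo, 29.3 CPM in intMo and 17.8 CPM in cMo, and Cd72 averaged 67.0 CPM in pMo, 57.1 CPM in intMo and 2.74 CPM in cMo. Ighm, Cd79b and Cd72 were named after their values were seen. Of the 8 tested, 2 rose and 2 fell in pMo against cMo, 0 rose and 2 fell in pMo against intMo, and 5 rose and 1 fell in intMo against cMo. The part of B cell RNA in the Cd22 levels was not tested.

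An antisense transcript, Gm29439, overlaps Cd22 on the opposite strand and was listed at 0 in all 9 libraries; 10.7% of the 31-base stretches of Cd22 transcripts also occur in other genes, so its counts carry that uncertainty. Ffar1, a fatty acid receptor gene that lies 3838 bases from Cd22 on the same strand, had 15.9, 32.8 and 29.6 CPM in pMo, 6.54, 23.6 and 32.0 CPM in intMo, and 0.900, 1.13 and 0.864 CPM in cMo. It rose in pMo against cMo by a log2 of 4.75 ± 0.59 (edgeR adjusted p = 0.000583) and in intMo against cMo by 4.42 ± 0.58 (edgeR adjusted p = 0.00117), and was not called in pMo against intMo (0.33 ± 0.49, edgeR adjusted p = 0.804). Ffar3, the next gene on that side, stayed at or below 0.452 CPM in every library.

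Siglech, a receptor without an inhibitory motif that pairs with the Tyrobp adaptor and is best known from plasmacytoid dendritic cells, was the member that set intMo apart. It lies on chromosome 7 at 55768178 to 55778925 on the plus strand (ENSMUSG00000051504.17), with a promoter that holds the cores of both RBPJ and PU.1. It had 0.986, 0.525 and 0.437 CPM in pMo libraries 0, 1 and 2, 35.5, 36.3 and 33.3 CPM in intMo, and 3.35, 4.57 and 4.57 CPM in cMo. The 3 subsets did not overlap, and the intMo libraries, library 0 included, lay close together. The pMo values rest on 24, 15 and 10 counts. The means were 0.649 ± 0.295 CPM in pMo, 35.0 ± 1.57 CPM in intMo and 4.16 ± 0.707 CPM in cMo (SD, n = 3 each). Siglech was the only member called in all 3 contrasts. In pMo against intMo it fell, with a log2 fold change of -5.75 ± 0.31 (edgeR adjusted p = 5.27e-05), 10th from the lowest of 14059 genes, and it fell in pMo against cMo, with -2.67 ± 0.29 (edgeR adjusted p = 0.000249). It rose in intMo against cMo by 3.07 ± 0.26 (edgeR adjusted p = 0.000127).

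Of the 11 genes tested from a list of 12 genes of plasmacytoid dendritic cells, 7 rose and 1 fell in intMo against cMo, 1 rose and 4 fell in pMo against intMo, and 4 rose and 1 fell in pMo against cMo. Ly6d had 0.493, 0.035 and 0 CPM in pMo, 18.8, 8.83 and 6.96 CPM in intMo, and 0.972, 0.457 and 0.396 CPM in cMo. Spib, a transcription factor of these cells, had 4.72, 7.25 and 5.9 CPM in pMo, 26.6, 18.8 and 21.5 CPM in intMo, and 0.72, 5.24 and 4.03 CPM in cMo, and the chemokine receptor gene Ccr9 had 1.6 to 2.38 CPM in pMo, 6.33 to 7.39 CPM in intMo and 0.36 to 0.844 CPM in cMo. Cox6a2 averaged 2.74 CPM in pMo, 2.82 CPM in intMo and 3.79 CPM in cMo, and Tcf4, the factor that specifies the lineage, lay at 50.6 to 53.6 CPM in pMo, 87.1 to 92.1 CPM in intMo and 40.4 to 77.1 CPM in cMo and was called in no contrast. Spib was not called in pMo against intMo (edgeR adjusted p = 0.0864). Runx2 and Dntt, named after their values were seen, had other orders, with Runx2 at means of 104 CPM in pMo, 56.0 CPM in intMo and 30.2 CPM in cMo, and Dntt at 0 CPM in pMo, 0.867 CPM in intMo and 7.69 CPM in cMo. The list summed to 523 to 548 CPM in pMo, 676 to 878 CPM in intMo and 498 to 518 CPM in cMo. A large part of the sum was Irf8, also named after its values were seen, at means of 277 CPM in pMo, 405 CPM in intMo and 331 CPM in cMo. Irf8 was called in no contrast. Whether such cells had a part in the Siglech level of intMo was not tested.

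Siglece, an inhibitory receptor of mouse monocytes, macrophages and neutrophils, was lowest in cMo. It lies on chromosome 7 at 43651070 to 43660161 on the minus strand (ENSMUSG00000030474.8). It had 89.8, 59.0 and 58.4 CPM in pMo libraries 0, 1 and 2, 114, 92.7 and 112 CPM in intMo, and 35.4, 29.1 and 21.6 CPM in cMo. No subset overlapped another, although pMo library 0 came close to intMo library 1. Siglece rose in pMo against cMo by a log2 of 1.27 ± 0.23 (edgeR adjusted p = 0.00298) and in intMo against cMo by 1.89 ± 0.23 (edgeR adjusted p = 0.000734). The difference of -0.62 ± 0.22 in pMo against intMo was not called (edgeR adjusted p = 0.168; 95% interval -1.12 to -0.12), and was called with libraries 1 and 2 alone at -0.80 (edgeR adjusted p = 0.0125, against 0.0125 to 0.45 over all alternatives). Neutrophil genes, which mark another cell type that carries Siglece, summed to 635 to 2840 CPM in pMo, 513 to 4510 CPM in intMo and 2590 to 13500 CPM in cMo. Library 0 stood apart in each subset, at 635 CPM in pMo, 513 CPM in intMo and 13500 CPM in cMo, whereas libraries 1 and 2 had 2770 and 2840 CPM in pMo, 4510 and 4200 CPM in intMo, and 2590 and 2940 CPM in cMo. Of those 14 genes, 0 rose and 5 fell in pMo and likewise in intMo against cMo. In both contrasts the 5 were Elane, Mpo, Prtn3, Ctsg and Mmp8, the last 3 named after their values were seen. Ly6g and Ngp were called in neither. In either contrast 0 of the 14 were higher at an unadjusted p under 0.05 (edgeR) or by DESeq2. With libraries 1 and 2 alone, 7 were called higher and 6 lower in pMo against cMo, and 8 higher and 5 lower in intMo against cMo. The named genes went both ways there. Ngp had 551 and 580 CPM in pMo, 636 and 646 CPM in intMo, and 174 and 202 CPM in cMo. Elane had 13.9 and 14.8 CPM in pMo, 56.2 and 58.5 CPM in intMo, and 162 and 166 CPM in cMo. The part of neutrophil RNA in the Siglece levels was not tested.

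Siglecg, an inhibitory receptor known for holding down B cells and responses to tissue damage, was the member that varied least. It lies on chromosome 7 at 43408204 to 43418358 on the plus strand (ENSMUSG00000030468.11). It had 28.6, 38.2 and 36.4 CPM in pMo libraries 0, 1 and 2, 25.4, 33.6 and 31.6 CPM in intMo, and 19.5, 19.5 and 18.3 CPM in cMo. The pMo and intMo libraries overlapped, and both lay above all cMo libraries. Siglecg rose in pMo against cMo by a log2 of 0.85 ± 0.16 (edgeR adjusted p = 0.00375) and in intMo against cMo by 0.66 ± 0.16 (edgeR adjusted p = 0.0165). The second call was lost without intMo library 1, at 0.58 (edgeR adjusted p = 0.0509), and without intMo library 2, at 0.63 (edgeR adjusted p = 0.0576), against 0.00172 to 0.0576 over all alternatives. In pMo against intMo the difference was 0.19 ± 0.16 (edgeR adjusted p = 0.614; 95% interval -0.17 to 0.54). Of the 31-base stretches of Siglecg transcripts, 7.01% also occur in other genes, chiefly Gm29791.

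Cd33, a myeloid receptor whose human counterpart is a marker of myeloid leukaemia, was lowest in pMo, where Cd22 was highest. It lies on chromosome 7 at 43524216 to 43544428 on the minus strand (ENSMUSG00000004609.10). It had 25.2, 39.2 and 40.8 CPM in pMo libraries 0, 1 and 2, 102, 99.0 and 102 CPM in intMo, and 104, 132 and 124 CPM in cMo. All pMo libraries lay far below the rest, while the lowest cMo library almost touched the intMo libraries. Cd33 fell in pMo against cMo with a log2 fold change of -1.77 ± 0.19 (edgeR adjusted p = 0.000243), a 3.42-fold lower level, and in pMo against intMo with one of -1.53 ± 0.19 (edgeR adjusted p = 0.00279). The difference of -0.24 ± 0.18 in intMo against cMo was not called (edgeR adjusted p = 0.365; 95% interval -0.65 to 0.17), and was called with libraries 1 and 2 alone at -0.34 (edgeR adjusted p = 0.0415, against 0.0415 to 0.589 over all alternatives).

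**Figure D2:**
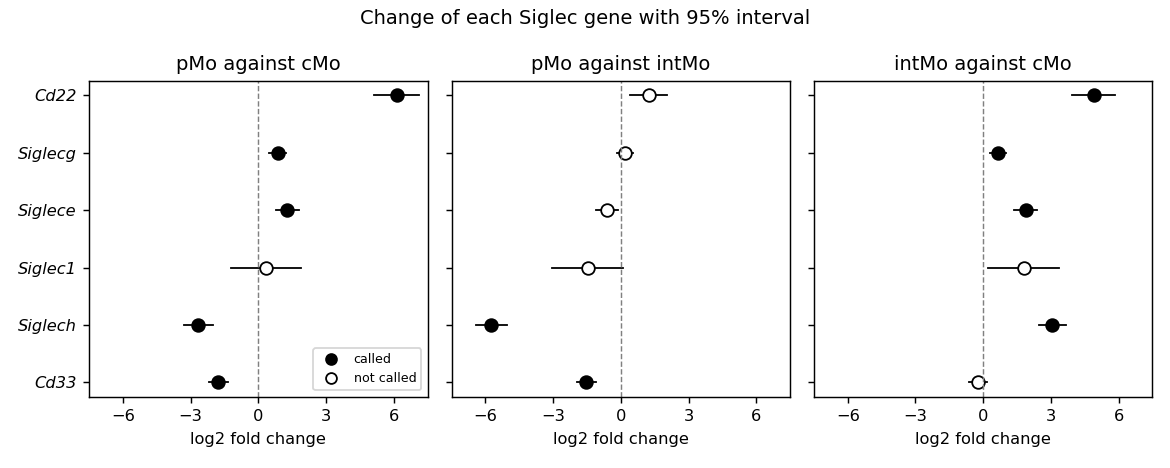
Log2 fold change of each Siglec gene with its 95% interval from the edgeR fit, for pMo against cMo, pMo against intMo and intMo against cMo; filled points were called and open ones were not. Siglech is called in all 3 panels, Cd33 in the first and second, Cd22, Siglecg and Siglece in the panels against cMo, and Siglec1 in none.

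Siglec1, also called sialoadhesin or CD169, is an adhesion receptor of macrophages without an inhibitory motif and a known interferon-responsive gene. It is the only member outside chromosome 7, on chromosome 2 at 131069220 to 131086765 on the minus strand (ENSMUSG00000027322.10). It had 15.6, 39.4 and 34.6 CPM in pMo libraries 0, 1 and 2, 58.0, 72.9 and 118 CPM in intMo, and 4.07, 43.8 and 23.6 CPM in cMo. Library 0 was the lowest of each subset, and pMo and cMo overlapped while intMo lay above both. The means were 29.9 ± 12.6 CPM in pMo, 83.0 ± 31.3 CPM in intMo and 23.8 ± 19.9 CPM in cMo (SD, n = 3 each). No contrast was called. The log2 differences were 0.33 ± 0.68 in pMo against cMo (edgeR adjusted p = 0.745), -1.47 ± 0.69 in pMo against intMo (edgeR adjusted p = 0.299) and 1.80 ± 0.70 in intMo against cMo (edgeR adjusted p = 0.0928; 95% interval 0.22 to 3.38).

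The intMo against cMo difference of Siglec1 was called under 4 alternatives, with limma-voom at 2.29 (limma adjusted p = 0.044), with the replicate number as a block at 2.20 (edgeR adjusted p = 0.0258), with libraries 1 and 2 alone at 1.51 (edgeR adjusted p = 0.0109) and without cMo library 1 at 2.58 (edgeR adjusted p = 0.0447). Over all 18 alternatives its adjusted p ran from 0.0109 to 0.235. The pMo against intMo difference was called with libraries 1 and 2 alone at -1.37 (edgeR adjusted p = 0.0237, against 0.0237 to 0.575 over all alternatives).

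Interferon-stimulated genes were lowest in library 0 of each subset, as Siglec1 was. Their summed level was 1290, 3380 and 3410 CPM in pMo libraries 0, 1 and 2, 1650, 3810 and 3700 CPM in intMo, and 439, 1480 and 1550 CPM in cMo. On the log2 scale, library 0 minus the mean of libraries 1 and 2 was -1.24 in pMo, -0.68 in intMo and -2.96 in cMo for Siglec1, beside -1.75, -1.52 and -2.39 for the mean of the 18 genes. Between subsets, the summed level in libraries 1 and 2 was 3380 and 3410 CPM in pMo beside 3810 and 3700 CPM in intMo. Siglec1 had 39.4 and 34.6 CPM in pMo beside 72.9 and 118 CPM in intMo in these libraries. Of the 18 genes, 2 rose in pMo against cMo, 0 in pMo against intMo and 3 in intMo against cMo, with none falling; in pMo against intMo 0 passed at an unadjusted p under 0.05 (edgeR) and DESeq2 called 0. With libraries 1 and 2 alone, 18 of 18 were called higher in pMo and in intMo against cMo. In pMo against intMo that fit called 0 higher and 2 lower. Macrophage genes also had their highest sums in intMo, with levels of 1510 to 2230 CPM in pMo, 3630 to 6770 CPM in intMo and 263 to 895 CPM in cMo. Of the 11 macrophage genes tested, 7 rose and 2 fell in pMo against cMo, 8 rose in intMo against cMo and 1 fell in pMo against intMo (8 fell there by DESeq2), while the tissue macrophage genes Vsig4 and Timd4 stayed at or below 0.246 CPM in all libraries. Cd5l, another tissue macrophage gene, had 3.68 to 9.94 CPM in pMo, 8.68 to 13.1 CPM in intMo and 0.972 to 1.86 CPM in cMo, and rose in pMo and in intMo against cMo. The part of either list in the Siglec1 levels was not tested.

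**Figure D3:**
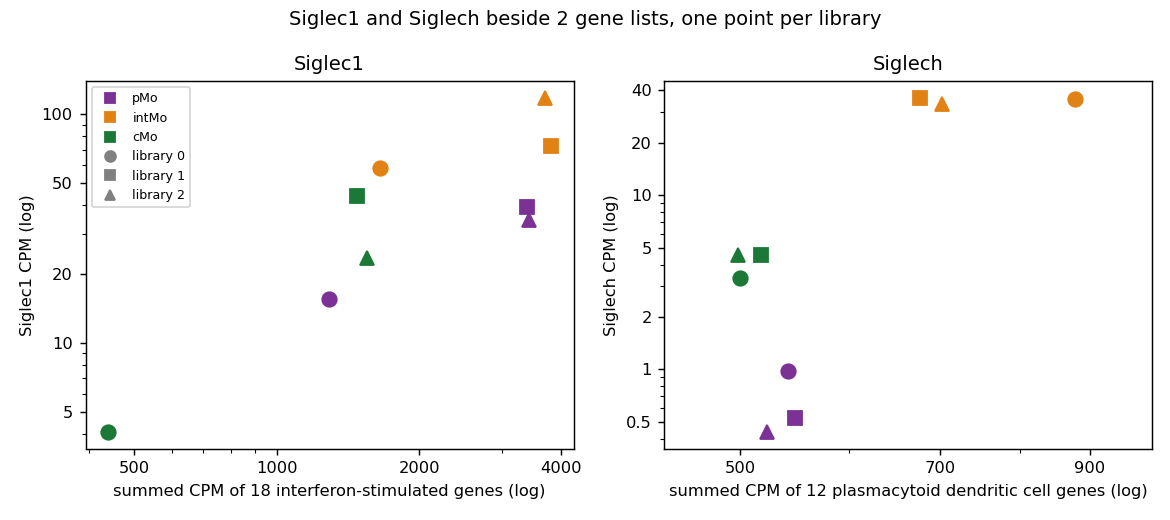
Left, Siglec1 level against the summed level of 18 interferon-stimulated genes; right, Siglech level against the summed level of 12 plasmacytoid dendritic cell genes, all in CPM on log axes, one point per library with colours for subsets and symbols for library numbers. For Siglec1 library 0 lies lowest and leftmost within every subset, and for Siglech the 3 intMo libraries stand apart at 33.3 to 36.3 CPM.

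Divided by transcript length, the levels of the 6 genes can be set beside each other. The members summed to 225 ± 27.7 CPM per kilobase in pMo, 207 ± 36.3 in intMo and 70.7 ± 7.6 in cMo (SD, n = 3 each). The pMo and intMo sums overlapped, at 194 to 245 and 167 to 238 CPM per kilobase, and both lay above the cMo sums of 64.9 to 79.3. Cd22 made up 69.1% ± 5.29 of the sum in pMo, 31% ± 11.8 in intMo and 3.22% ± 0.583 in cMo. Cd33 made up 4.87% ± 0.68 in pMo, 15.8% ± 3.08 in intMo and 53.6% ± 3.72 in cMo. The ratio of Cd22 to Cd33 per kilobase was 15.3, 14.3 and 13.3 in pMo libraries 0, 1 and 2, 0.904, 2.66 and 2.71 in intMo, and 0.0761, 0.051 and 0.0546 in cMo. Cd22 was thus the most abundant of the 6 in every pMo library and Cd33 in every cMo library, with no overlap of the ratio between subsets.

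In pMo the order per kilobase was the same in all 3 libraries, from Cd22 through Siglece, Siglecg, Cd33 and Siglec1 to Siglech. Siglecg averaged 13.4 ± 1.98 CPM per kilobase and Cd33 11.1 ± 2.71 CPM per kilobase there (SD, n = 3 each). Their spreads between libraries overlapped, although Siglecg was above Cd33 within each pMo library. In intMo, Siglece at 57.4 ± 6.36 CPM per kilobase was second to Cd22 at 66.9 ± 32.7 in libraries 1 and 2 and first in library 0, so these neighbours did not differ beyond their spread; nor did Siglech at 21.2 ± 0.947 and Siglec1 at 17.7 ± 6.69. In cMo, Cd33 at 37.9 ± 4.66 CPM per kilobase led Siglece at 15.5 ± 3.75 in every library, and the order of the other members changed between libraries. Siglech made up 0.183% ± 0.109 of the sum in pMo, 10.5% ± 2.22 in intMo and 3.56% ± 0.479 in cMo.

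**Figure D4:**
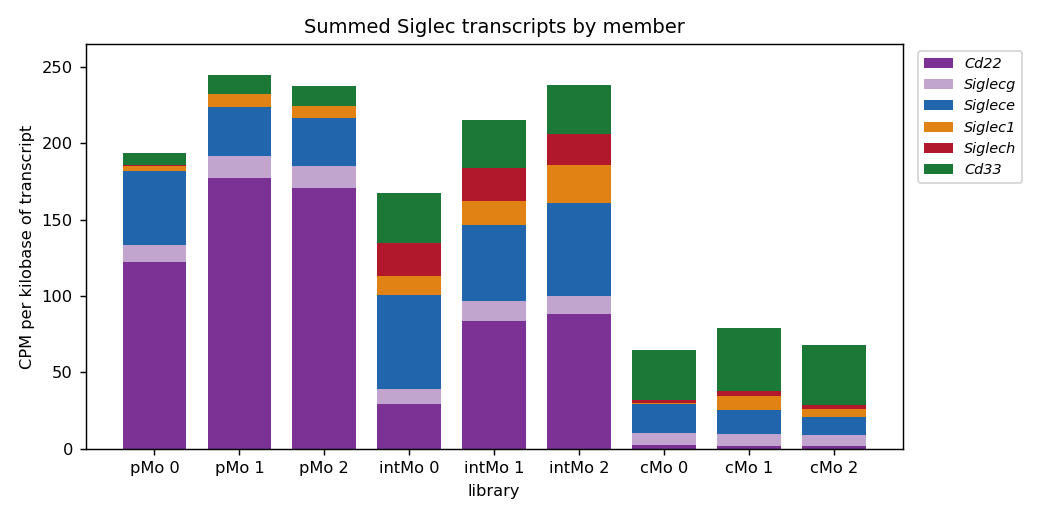
Summed level of the 6 Siglec genes in CPM per kilobase of transcript in each library of pMo, intMo and cMo, stacked by gene. Cd22 takes 63.0% to 72.3% of the bar in pMo, and Cd33 takes 50.5% to 57.7% in cMo.

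Outside the 6 genes, the mouse Siglecs in the table were low. Siglecf, a receptor of eosinophils and alveolar macrophages, averaged 3.23 ± 0.581 CPM in pMo, 4.37 ± 0.216 CPM in intMo and 5.08 ± 3.58 CPM in cMo (SD, n = 3 each) and was called in no contrast. Eosinophil genes summed to 5.73 to 9.41 CPM in pMo, 14.6 to 22.2 CPM in intMo and 0.936 to 6.01 CPM in cMo, and of the 4 tested 1 rose in pMo and in intMo against cMo. Mag, a myelin Siglec of glia, averaged 1.98 ± 0.196 CPM in pMo, 4.16 ± 1.42 CPM in intMo and 0.978 ± 0.347 CPM in cMo (SD, n = 3 each), and rose in intMo against cMo by a log2 of 2.08 ± 0.36 (edgeR adjusted p = 0.00375). Siglec15 was listed at 0 in all 9 libraries.

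Most genes that carry Siglec signals inside the cell were higher in pMo than in cMo. Of 14 adaptors, kinases, phosphatases and their regulators, 12 rose and 0 fell in pMo against cMo, 3 rose and 0 fell in pMo against intMo, and 7 rose and 0 fell in intMo against cMo. In the same order of contrasts, 17.2%, 3.29% and 14% of all tested genes were called higher, and 15.9%, 1.69% and 10.4% lower. The median log2 fold changes of the 14 were 0.72 in pMo against cMo, 0.51 in pMo against intMo and 0.60 in intMo against cMo, beside 0.03, -0.02 and -0.01 over all genes tested. Ptpn6, which encodes the phosphatase SHP-1 that inhibitory Siglecs recruit, averaged 947 CPM in pMo, 668 CPM in intMo and 620 CPM in cMo, and rose in pMo against cMo by a log2 of 0.61 ± 0.18 (edgeR adjusted p = 0.0284). Ptpn11, which encodes the related SHP-2, averaged 181 CPM in pMo, 98.3 CPM in intMo and 118 CPM in cMo, and rose in pMo against cMo by 0.62 ± 0.15 (edgeR adjusted p = 0.0119) and against intMo by 0.88 ± 0.15 (edgeR adjusted p = 0.0115). Tyrobp, the activating adaptor of Siglech, averaged 991 CPM in pMo, 856 CPM in intMo and 727 CPM in cMo, and rose in pMo against cMo by 0.45 ± 0.14 (edgeR adjusted p = 0.0364). Its mean was thus highest in pMo, the subset in which Siglech was lowest.

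Src family kinases phosphorylate the tyrosine motifs of Siglecs. Fyn averaged 231 CPM in pMo, 88.4 CPM in intMo and 17.0 CPM in cMo and was called in all 3 contrasts, with a log2 of 3.76 ± 0.24 in pMo against cMo (edgeR adjusted p = 1.57e-05). Fgr averaged 830 CPM in pMo, 445 CPM in intMo and 237 CPM in cMo and was also called in all 3, with 0.90 ± 0.14 in pMo against intMo (edgeR adjusted p = 0.00709). Socs3, a suppressor of cytokine signalling that binds phosphorylated motifs, averaged 198 CPM in pMo, 122 CPM in intMo and 42.6 CPM in cMo, and rose in pMo against cMo by 2.22 ± 0.53 (edgeR adjusted p = 0.0123).

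Genes that make and attach the sialic acid ligands changed in both directions. Of 7 genes of sialic acid supply, 0 rose and 2 fell in pMo against cMo and 0 rose and 3 fell in intMo against cMo. In pMo against intMo edgeR called 0 of the 7, with 0 at an unadjusted p under 0.05, and DESeq2 called 0. Cmah, which makes the N-glycolyl form of sialic acid that mouse Cd22 prefers, averaged 50.6 CPM in pMo, 58.3 CPM in intMo and 140 CPM in cMo, and changed by a log2 of -1.47 ± 0.32 in pMo (edgeR adjusted p = 0.00773) and of -1.26 ± 0.32 in intMo (edgeR adjusted p = 0.0205) against cMo. Nans, the sialic acid synthase gene, changed by -1.05 ± 0.16 in pMo (edgeR adjusted p = 0.00159) and by -0.83 ± 0.16 in intMo (edgeR adjusted p = 0.00698) against cMo.

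Of 20 sialyltransferase genes, 14 were tested, and 8 rose and 1 fell in pMo against cMo, 4 rose and 0 fell in pMo against intMo, and 3 rose and 1 fell in intMo against cMo. DESeq2 called 8 as higher in pMo against intMo. St6galnac4 averaged 117 CPM in pMo, 53.7 CPM in intMo and 33.4 CPM in cMo, and rose in pMo against cMo by 1.81 ± 0.29 (edgeR adjusted p = 0.0018). St3gal1 averaged 220 CPM in pMo, 93.7 CPM in intMo and 80.1 CPM in cMo, and rose in pMo against cMo by 1.45 ± 0.17 (edgeR adjusted p = 0.000392) and against intMo by 1.23 ± 0.17 (edgeR adjusted p = 0.00464). St3gal2 averaged 39.4 CPM in pMo, 20.6 CPM in intMo and 46.2 CPM in cMo, so that it was lowest in intMo, where the log2 fold change against cMo was -1.16 ± 0.18 (edgeR adjusted p = 0.00212). St8sia1, a ganglioside sialyltransferase, averaged 8.52 CPM in pMo, 8.63 CPM in intMo and 3.59 CPM in cMo. It rose in pMo by 1.25 ± 0.29 (edgeR adjusted p = 0.0101) and in intMo by 1.27 ± 0.29 (edgeR adjusted p = 0.0133) against cMo. Of 4 sialidase and esterase genes tested from 6, Neu1, the lysosomal sialidase, alone was called, rising in pMo by 0.49 ± 0.14 (edgeR adjusted p = 0.022) and in intMo by 0.62 ± 0.14 (edgeR adjusted p = 0.0118) against cMo.

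**Figure D5:**
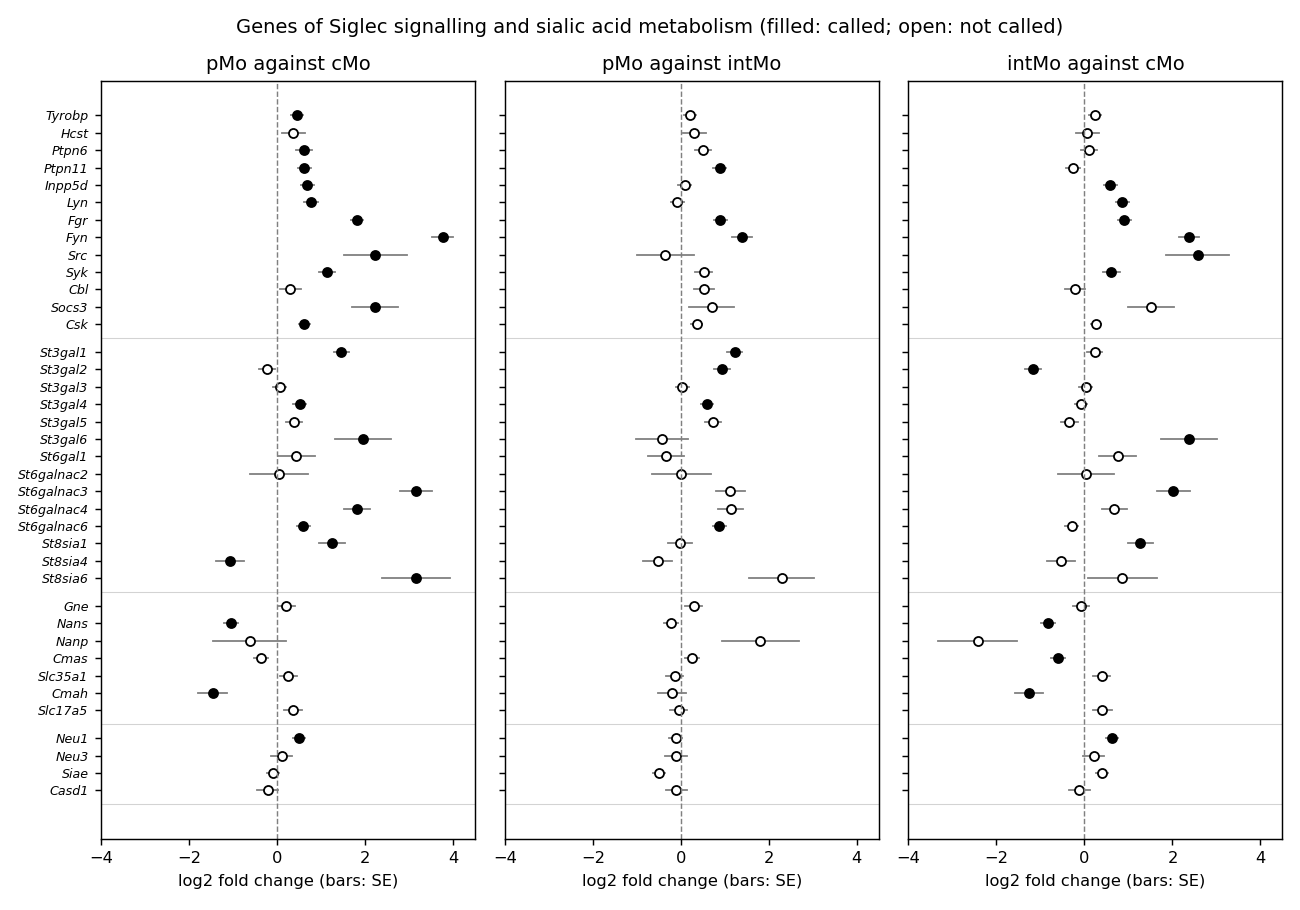
Log2 fold change with SE of tested genes of Siglec signalling, sialyltransferases, sialic acid supply, and sialidases and esterases, from top to bottom, in pMo against cMo, pMo against intMo and intMo against cMo; filled points were called and open ones were not. In the first panel 11 of the 13 signalling genes drawn are filled and to the right of 0, while Nans and Cmah are filled and to the left.

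The genes whose log2 CPM tracked each member best over the 9 libraries were taken from 9704 genes of at least 5 CPM on average. The libraries fall into 3 subsets shared by all genes, so r is given as a description with no test. Cd22 was tracked by Rnd1 (Pearson r of 0.991 over 9 libraries), Treml4 (0.987) and Prkcb (0.986), and Treml4, a marker of patrolling monocytes, averaged 434 CPM in pMo, 230 CPM in intMo and 18.2 CPM in cMo. Siglecg was tracked by Ddx24 (0.979), Ffar1 (0.977) and Rnd1 (0.975), Siglece by Sesn2 (0.989), Snn (0.989) and Tspan15 (0.988), and Cd33 by Polr3b (0.982), Rad50 (0.973) and Psd3 (0.971). Siglech had the loosest match, with Aig1 (0.956), Ppp3ca (0.946) and Arid5a (0.939), and Siglec1 was tracked by Trim14 (0.963), an interferon-responsive gene, Prkacb (0.953) and Pik3c2a (0.95).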

How the data were processed

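Per the labels' protocols, RNAzol was used for extraction and the NEBNext Ultra II stranded mRNA kit for the libraries. The authors deposited gene-level estimated counts in 1 column for each library, made with kallisto 0.46.1 and mm10 per the submitters' processing notes. Annotation, gene summing and strand setting are not stated there, so overlapping and antisense genes are uncertain.

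Of 46517 Ensembl identifiers, 46005 matched a symbol of GENCODE M21 (GRCm38), 512 did not, and 118 shared a symbol with another. Between 19.4% and 22% of values per library were not whole within 0.001, and values were rounded before testing. Totals of 18455116 to 29985684 counts limit precision at low levels; there were no molecular identifiers, so reads are not independent molecules.

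Genes were filtered with filterByExpr by subset, which left 14059, scaled by TMM and fitted over all 9 libraries by subset with edgeR 4.0.16 in R 4.3.3 (quasi-likelihood F test, robust). The 3 contrasts and a test of both coefficients were adjusted by Benjamini-Hochberg over all genes. CPM per kilobase used the mean length of the basic protein-coding transcripts. Likeness was Pearson's r of log2 CPM (prior count 2). The 18 alternatives were other scalings and filters, DESeq2 1.42.0, limma-voom 3.58.1, only the subsets compared, a replicate block, libraries 1 and 2 alone, and leaving out each library. The fits were tested on simulated data in which 200 genes had known changes by a log2 of 1 or 2. Over the 3 contrasts, 26% to 34% of changes by a log2 of 1 were called, and 80% to 82% of those by a log2 of 2. These 200 were a smaller share of the genes than was called in the data, which makes the adjustment stricter. The rates thus do not measure how many changes the real contrasts miss, although changes of the smaller size can go uncalled.

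The members, the gene lists (Siglec signalling, sialic acid supply, sialyltransferases, sialidases and esterases, other Siglecs, B cell, plasmacytoid dendritic cell, macrophage, neutrophil, eosinophil, stromal, monocyte subset, interferon-stimulated) and the tests were chosen with earlier results of these data known. The text names all members, the 3 genes most like each, Tyrobp, Ptpn6 and Ptpn11, the 2 largest called changes of each pathway list per contrast among genes of at least 5 CPM on average, and defining markers of cell types. A few genes taken by this rule are not reported here.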

Additional observations from a re-analysis of the deposited data

How the results depend on the processing

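Of 324 log2 fold changes of the members under the 18 alternatives, 311 kept their direction and their side of the threshold, 2 lost the call, 10 gained one and 1 changed sign. The last was Siglec1 in pMo against cMo, called in none of them, at 0.33 with all libraries, -0.18 without cMo library 0 and up to 1.1 without another. The number of members called in pMo against intMo was 2, and 5 with libraries 1 and 2 alone, a fit with 2 libraries per subset. In that fit 10 signalling genes were higher and 0 lower in pMo against cMo, 6 and 0 in pMo against intMo and 5 and 0 in intMo against cMo, and of the sialyltransferases 8 were higher and 1 lower in pMo against cMo, 7 and 2 in pMo against intMo and 4 and 3 in intMo against cMo. Over all genes, 701 were called in pMo against intMo (66% of them higher), against 1352 with DESeq2 (54.8% higher), 2424 with libraries 1 and 2 alone and 221 to 1107 when 1 library was left out. In intMo against cMo, 3433 genes were called, against 2213 with only these subsets fitted. With the replicate number as a block, 5 members were called in pMo against cMo, 2 in pMo against intMo and 5 in intMo against cMo, where Siglec1 was added, and 6 differed among the subsets; over all genes the counts were 4961, 836 and 3650. The numbers were not taken to pair the libraries, since not every same-numbered pair correlated above 0.1 in its deviations: r was 0.274 to 0.588 between pMo and intMo, -0.016 to 0.23 between pMo and cMo and -0.143 to 0.066 between intMo and cMo. Among libraries 1 and 2 of pMo and intMo, differently numbered pairs had r of 0.279 and 0.403, beside 0.274 and 0.3 for same-numbered pairs. Pairs of library 0 with library 1 or 2 ran from -0.487 to -0.378 between these subsets. The high r thus set library 0 apart from libraries 1 and 2, and did not settle a pairing of pMo and intMo by number. Other scalings moved the median log2 fold change of all genes by at most 0.06. Siglech at 10 to 24 counts per pMo library is the value that depth limits most.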

Other observations

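Beside Cd22, another inhibitory receptor known from B cells, Cd72, differed between the subsets; it was picked after its values were seen. Cd72 lay at 35.2 to 128 CPM in pMo, 39.7 to 86.0 CPM in intMo and 2.59 to 2.99 CPM in cMo. It rose in pMo against cMo by a log2 of 4.61 ± 0.58 (edgeR adjusted p = 0.000629) and in intMo against cMo by 4.38 ± 0.58 (edgeR adjusted p = 0.00117). Blk, a Src family kinase of B cells picked in the same way, averaged 0.0536 CPM in pMo, 1.32 CPM in intMo and 0.453 CPM in cMo and fell in pMo against intMo, with a log2 fold change of -4.51 ± 0.63 (edgeR adjusted p = 0.00512), at levels near the limit of detection.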
